A study of Mus musculus with 19 samples.

Results

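Transcript levels of 10 genes of vascular signalling were compared between the layers of the mouse visceral yolk sac (VYS) and the other tissues of the series: the ligands Vegfa, Angpt1 and Angpt2, the receptors Flt1, Kdr, Tek, Tie1 and Eng, and the endothelial junction genes Pecam1 and Cdh5. They were taken by gene symbol, all 10 were found, and they made up 18 of the 30455 RefSeq transcript rows and 10 of the 23337 gene symbols in the expression tables. Each gene is described by its transcript row with the highest mean count, and all 10 passed the filter on low counts. Total counts ran from 40453779 to 169981821 a library.

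The tissues were E12.5 VYS endoderm (ysE, 1 library), E9.25 ysE (2), E9.25 VYS mesoderm (2), E12.5 fetal liver (2) and cystic embryoid bodies (EBs, 4), 11 RNA-seq libraries in all. The animal tissues were FVB, with a whole litter pooled for each sample, and the mesoderm was collected along with its vessels and basement membrane. The p-values between tissues rest on a spread shared over all tissues in the fit. That spread includes differences among the 4 cystic EB libraries, which are not litter pools, as well as differences between litter pools. Cystic EBs are hollow aggregates grown from embryonic stem (ES) cells. They were sampled at day 10 and day 15 from the ES clones A9 (XY, replicate A) and JN (XX, replicate B), both from C57BL/6 and 129 crosses. There was 1 library for each clone and day. The fit over tissues counted them as 4 replicates, as the study did, though libraries of 1 clone are not independent. The p-values of cystic EBs against other tissues can thus be too small. Libraries differed in protocol: dUTP for both E9.25 layers and clone JN, ScriptSeq for liver and clone A9, and a non-stranded protocol for E12.5 ysE. Clone, its sex and protocol thus cannot be told apart. The enzyme step before the layers were separated lasted 1 h at the earlier stage and 2 h at E12.5. Stage, protocol and this step thus cannot be told apart in ysE. Bisulfite sequencing covered E12.5 ysE, E12.5 liver and day 15 cystic EBs from reciprocal CAST and FVB crosses (CxF and FxC, with the ES clones CF C2 and FC A2 for the EBs), and H3K4me3 was mapped in 1 library of E12.5 VYS with both layers.

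VEGF-A is secreted by many cell types and acts on endothelial cells through KDR (also called FLK1), while FLT1 binds it tightly with weak signalling of its own. Angiopoietin 1 activates the receptor TEK (TIE2), angiopoietin 2 can act as its antagonist, and TIE1 modifies TEK signalling. Endoglin is a co-receptor for BMP9 and BMP10, and PECAM1 and VE-cadherin (Cdh5) sit at the contacts between endothelial cells. In the yolk sac the first vessels and blood cells form in the mesoderm, next to the endoderm.

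RefSeq promoter sequences (GRCm38, the mm10 build of the files) were at hand for Vegfa, Flt1, Kdr, Tek, Tie1 and Eng. The 250 bases before the start listed there are shown for 4 of them, since they span the range from CpG-rich to CpG-poor promoters and bear on the chromatin values below. For Kdr, Flt1 and Tek the RefSeq gene range begins further upstream than that start. The Kdr and Flt1 windows thus lie wholly, and the Tek window mostly, inside the gene. CpG dinucleotides, the sites read by bisulfite sequencing, are in capitals. The sequences lie at chr17:46032378-46032627 (Vegfa, minus strand), chr5:75978456-75978705 (Kdr, minus), chr4:94739039-94739288 (Tek, plus) and chr4:118489850-118490099 (Tie1, minus), each given 5′ to 3′ towards its start.
Vegfa: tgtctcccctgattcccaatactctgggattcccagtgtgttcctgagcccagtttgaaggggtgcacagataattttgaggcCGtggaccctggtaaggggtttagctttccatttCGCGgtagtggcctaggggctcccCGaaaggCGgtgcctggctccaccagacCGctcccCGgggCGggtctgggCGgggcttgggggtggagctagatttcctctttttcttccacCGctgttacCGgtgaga
Kdr: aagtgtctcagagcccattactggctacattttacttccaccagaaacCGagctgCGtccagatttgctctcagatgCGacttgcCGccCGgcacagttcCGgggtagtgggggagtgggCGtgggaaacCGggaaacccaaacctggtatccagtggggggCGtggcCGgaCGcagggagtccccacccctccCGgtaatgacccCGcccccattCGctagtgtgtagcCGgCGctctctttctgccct
Tek: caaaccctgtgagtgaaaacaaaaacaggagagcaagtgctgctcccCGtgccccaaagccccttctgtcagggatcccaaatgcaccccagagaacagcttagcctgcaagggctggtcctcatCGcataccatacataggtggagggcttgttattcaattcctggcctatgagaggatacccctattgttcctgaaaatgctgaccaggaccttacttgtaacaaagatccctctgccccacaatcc
Tie1: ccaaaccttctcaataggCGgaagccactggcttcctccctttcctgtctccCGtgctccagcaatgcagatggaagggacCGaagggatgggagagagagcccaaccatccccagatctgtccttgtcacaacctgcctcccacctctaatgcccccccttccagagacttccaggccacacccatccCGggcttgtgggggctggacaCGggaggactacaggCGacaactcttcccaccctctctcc

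The Kdr window held 16 CpGs, Vegfa 11, Tie1 6 and Tek 2, against a median of 6 over 32851 promoters, and of the other windows Flt1 held 23 and Eng 4. The letters GGAAGT, a core bound by ETS factors, were found on either strand in Flt1, Kdr, Tie1 and Eng, 1 match each, and in 19.7% of all promoters. GGGCGG, the SP1 core, was found in Vegfa (2 matches), Kdr (2) and Flt1 (3), and in 32.7% of all promoters. The letters AGATAA, which GATA factors bind, were found in Vegfa (1 match, and 9.99% of all promoters). A TATA box, TATAAA, was found in Flt1 (1 match, and 12.4%). The letters ACGTG, a form of the hypoxia core, were in none of the 6 windows and in 16.6% of all promoters. The form GCGTG was not counted, and on either strand it occurs in the Kdr and Flt1 windows. These are matches of letters, not bound sites.

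H3K4me3, a mark of active promoters, had a peak over the start of all 6 members with a RefSeq start, where 41.6% of 27025 genes had one. For Pecam1, Cdh5 and Angpt1 the start was taken as the gene end that lay at a peak, so their peaks were found by construction. The peaks of Vegfa (chr17:46028560-46032907) and Kdr (chr5:75975073-75978971) had the MACS score of 3100 that 5262 of the 22343 peaks shared. Angpt1 (2537), Eng (2467), Tek (2109), Flt1 (1555), Cdh5 (1509) and Pecam1 (1309) were above the median score of 863. Tie1 had a short peak of 811 bases with a score of 278. Angpt2 had no peak within 1 kb of either gene end, and the highest peak inside the gene, 2244 bases from that end, scored 59.2. The VYS library held both layers, so the marks cannot be assigned to one.

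The values of all 10 genes in the 11 libraries are shown in the plot of RPKM (reads per kilobase of transcript, scaled to the size of the library) by tissue.

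**Figure D1:**
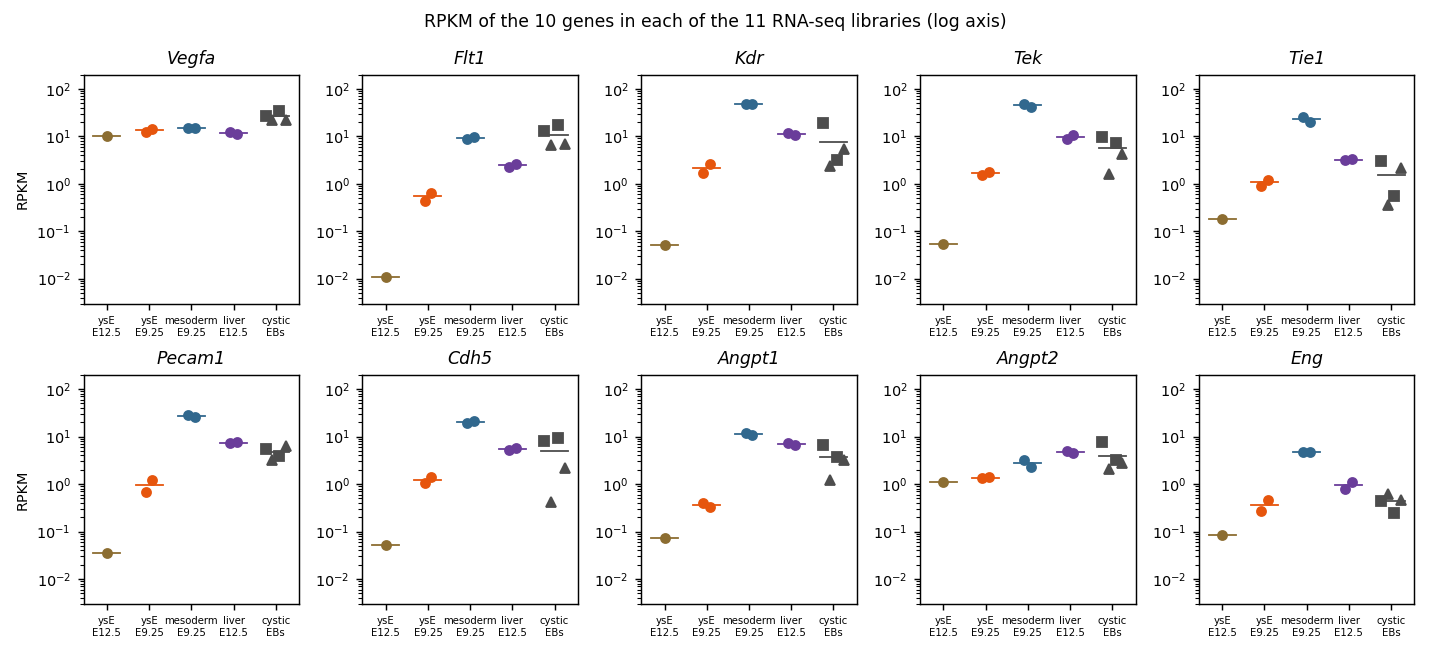
Each panel is 1 gene, the y axis is RPKM on a log scale, each point is a library and each line the tissue mean. Squares are cystic EBs of clone A9 and triangles those of clone JN. Vegfa stays between 10.1 and 34.2 RPKM in all libraries, while Kdr spans 0.051 to 47.1.

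Within the E9.25 yolk sac, 8 of the 10 genes were higher in mesoderm and none was lower (edgeR quasi-likelihood test, FDR 5%), where 16.9% of the 24858 transcripts tested were higher and 13.7% were lower. The 8 were Flt1, Kdr, Tek, Tie1, Eng, Pecam1, Cdh5 and Angpt1, with fold changes of 10.4 (Eng) to 25.4 (Angpt1). Vegfa and Angpt2 did not pass the test. The median log2 fold change of the 10 genes was 3.93, beside 0.05 for all transcripts. DESeq2 called the same 8 genes. Without either ysE library 5 of the 8 passed, with Kdr, Tie1 and Cdh5 missing, and without either mesoderm library Cdh5 did not pass.

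On the ligand side, Vegfa measured 12.2 and 14.3 RPKM in ysE and 14.8 and 14.7 in mesoderm. The ranges did not overlap. The ysE mean was 89.7% of the mesoderm mean on the RPKM scale, while the log2 fold change of mesoderm over ysE was −0.16 ± 0.27 (SE) after TMM scaling, with an adjusted p of 0.70, so that the direction turned with the scale. The other 5 Vegfa rows, which share most of their reads with it, had log2 fold changes of −0.16 to −0.11.

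Angpt1 measured 0.395 and 0.324 RPKM in ysE and 12.1 and 10.7 in mesoderm. It had the largest log2 fold change of the 10, with a log2 fold change of 4.67 ± 0.66 and an adjusted p of 0.00085. Angpt2 measured 1.33 and 1.38 RPKM in ysE and 3.15 and 2.28 in mesoderm. Both mesoderm values lay above both ysE values, but the log2 fold change of 0.68 ± 0.54 did not pass the test (adjusted p = 0.38). With only the 4 libraries of these layers in the fit it was 0.72, with an adjusted p of 0.016.

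On the receptor side, Kdr measured 1.71 and 2.58 RPKM in ysE and 47.1 and 47.0 in mesoderm, a log2 fold change of 4.14 ± 0.92 (adjusted p = 0.0080). Kdr was also the gene used by the study, with Afp, to assess how well the layers had been separated. Flt1 measured 0.432 and 0.653 RPKM in ysE and 8.91 and 9.44 in mesoderm (log2 fold change 3.76 ± 0.52, adjusted p = 0.00078). Both VEGF receptors had separate ranges in the layers, and on the RPKM scale, which allows for length, Kdr was above Flt1 in both.

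Tek measured 1.54 and 1.78 RPKM in ysE and 47.5 and 41.6 in mesoderm (log2 fold change 4.43 ± 0.72, adjusted p = 0.0017). Tie1 measured 0.918 and 1.22 against 25.8 and 20.1 RPKM (4.10 ± 0.90, adjusted p = 0.0076). Both receptors of the angiopoietin system thus lay in separate ranges in the layers. Eng measured 0.274 and 0.462 against 4.84 and 4.69 RPKM (3.37 ± 0.47, adjusted p = 0.00081), and its other 2 rows gave 3.37.

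Of the junction genes, Pecam1 measured 0.684 and 1.20 RPKM in ysE and 28.9 and 25.4 in mesoderm (log2 fold change 4.53 ± 0.38, adjusted p = 0.00015). Cdh5 measured 1.06 and 1.43 against 19.4 and 20.8 RPKM (3.70 ± 1.12, adjusted p = 0.032). Cdh5 had the largest error of the 10 genes in this comparison, where the spread was shared over all 5 tissues. With only the libraries of these layers in the edgeR fit it was 3.74 ± 0.17 (adjusted p = 4.7e-06). In that fit Kdr was at 4.18 ± 0.21 and Tie1 at 4.14 ± 0.19, and all 10 genes had a smaller SE.

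**Figure D2:**
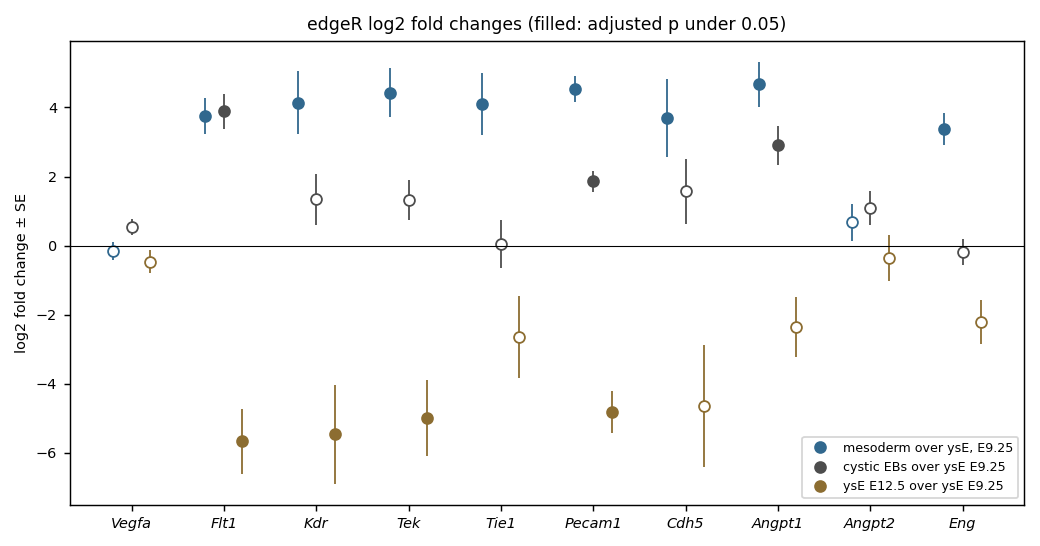
The y axis is the edgeR log2 fold change with its SE for each gene, for mesoderm over ysE at E9.25, cystic EBs over E9.25 ysE and E12.5 over E9.25 ysE. Filled points passed an FDR of 5%. Vegfa lies within 0.54 of 0 in all 3, while Pecam1 is at 4.53, 1.86 and −4.82.

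As a share of the mesoderm mean (RPKM), the 7 receptor and junction genes in E9.25 ysE lay between 3.46% (Pecam1) and 7.73% (Eng), with a median of 4.65%. Angpt1 lay at 3.15% and Angpt2 at 49.9%. Markers of other cell types also differed between the layers. Only markers with a mean of 1 RPKM or more in either layer were used. A marker could thus enter through mesoderm alone, which can lower the ysE share. The median ysE share was 3.90% over 18 other endothelial markers, 3.04% over 8 primitive erythroid markers, 2.63% over 5 megakaryocyte markers and 6.25% over 7 mesenchymal and mural markers. It was 10.96% over 3 trophoblast and 42.2% over 3 macrophage markers, which ranged from 4.14 to 140.9%, while all 8 macrophage markers summed to 4.89 and 5.84 RPKM in ysE and 61.8 and 62.3 in mesoderm. In the other direction, 10 visceral endoderm markers in mesoderm had a median share of 12.2% of their ysE level, with summed levels of 1286 and 2293 RPKM against 11798 and 13237. Erythroid markers summed to 34393 and 44107 RPKM in mesoderm and to 858 and 1026 in ysE, with none of the 8 at 0 counts in either layer. The part of carried-over cells in the layer values was not tested, and in such bulk samples fewer cells of a type and less RNA per cell cannot be told apart.

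The ratio of ligand to receptor within a library does not depend on its depth. Vegfa over Kdr (RPKM + 0.1) was 6.78 and 5.38 in E9.25 ysE and 0.316 and 0.314 in mesoderm. Vegfa transcripts were thus above those of Kdr in ysE and below them in mesoderm, a 19.2-fold difference in the ratio. Vegfa over Flt1 was 23.1 and 19.1 in ysE and 1.66 and 1.55 in mesoderm, a 13.1-fold difference.

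Angpt1 over Tek did not separate the layers, with ratios of 0.302 and 0.226 in ysE and 0.256 and 0.260 in mesoderm, a log2 difference of 0.02 (exact permutation p = 1). Angpt2 over Tek was 0.874 and 0.786 in ysE and 0.068 and 0.057 in mesoderm, a 13.3-fold difference. Angpt2 over Angpt1 was 2.89 and 3.48 in ysE and 0.266 and 0.22 in mesoderm, a 13.1-fold difference. In ysE the transcripts of Angpt2 thus exceeded those of Angpt1, and in mesoderm the order was the reverse. For the 4 ratios that separated the layers the two-sided exact permutation p was 0.33 (5 ratios tested), the smallest that 2 against 2 libraries allow, so that no adjusted value can pass. Angpt1 in ysE lay near the added 0.1, and with 1 RPKM added its log2 difference over Tek was 0.91. With 1 RPKM added the log2 difference of Vegfa over Flt1 was 2.575, in place of 3.71, and that of Angpt2 over Angpt1 was 2.54, in place of 3.71.

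**Figure D3:**
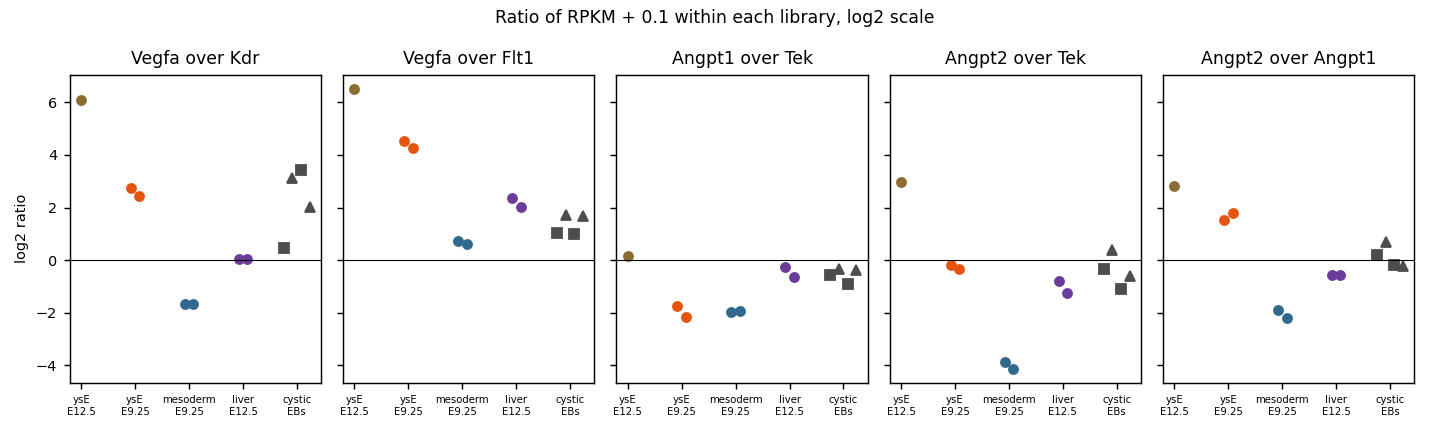
Each point is the log2 ratio of RPKM + 0.1 in 1 library, with squares for clone A9 and triangles for clone JN. Kdr, Flt1, Tek and Angpt1 lie below the added 0.1 in E12.5 ysE, so its ratios rest on that value. The log2 ratio of Vegfa to Kdr averages 2.60 in E9.25 ysE and −1.67 in mesoderm, while that of Angpt1 to Tek averages −1.94 and −1.96 in the E9.25 layers.

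Other genes of these pathways were read from lists. The lists were chosen with earlier results known, so their counts are a description. Of 7 measured VEGF ligands and co-receptors (median log2 fold change 3.66), 4 were higher in mesoderm and none lower (all transcripts: 16.9% higher, 13.7% lower). The 4 were Vegfc (4.57 ± 0.34), the ligand of the lymphatic receptor Flt4 (3.655 ± 0.52), Pgf, which binds FLT1 (3.85 ± 0.55), and the co-receptor Nrp1 (4.50 ± 0.67). Vegfb (−0.39 ± 0.31), Figf, which encodes VEGF-D (0.91 ± 0.79), and Nrp2 (1.61 ± 0.69) did not pass. Vegfc and Pgf were thus called in the same direction as Kdr and Flt1.

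Of 7 angiopoietin and TIE modulators, 6 were higher in mesoderm and none lower, among them Angpt4 (4.59 ± 0.62), the TEK adaptor Dok2 (4.22 ± 0.67), Angptl2 (3.715 ± 0.35) and the phosphatase Ptprb (3.70 ± 0.77). Of 10 endoglin partners, 4 were higher, namely the BMP9 receptor Acvrl1 (4.11 ± 0.76), its ligand Gdf2 (3.21 ± 0.85), Bmpr2 (1.74 ± 0.46) and Smad6 (1.69 ± 0.48), and 2 were lower, Smad1 (−1.68 ± 0.24) and the BMP target Id1 (−1.57 ± 0.43). The median was 1.14, and 16.9% of all transcripts were higher and 13.7% lower.

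Among all transcripts 16.9% were higher in mesoderm and 13.7% lower, and the lists here are read beside these shares. Of 12 endothelial transcription factors 9 were higher in mesoderm and none lower, with Erg (4.65 ± 1.25), Tal1 (4.64 ± 0.57), Fli1 (4.59 ± 0.82) and Mef2c (4.14 ± 0.89) changed most. Of 11 arterial, venous and Notch genes 8 were higher and none lower, led by Hey2 (4.81 ± 0.67), Dll4 (3.75 ± 0.66), Jag1 (3.63 ± 0.47) and Hey1 (3.51 ± 0.73). Of 18 other endothelial markers 17 were higher, led by Emcn (5.13 ± 1.09), Cldn5 (4.86 ± 0.94), Icam2 (4.73 ± 1.02) and Clec14a (4.71 ± 0.75), and Tspan18 (1.5, adjusted p = 0.063) did not pass. The 12 factors summed to 175 and 184 RPKM in liver, above 109 and 110 in mesoderm. This sum does not describe the typical factor. The median log2 fold change of mesoderm over liver was 1.04, with 2 factors higher, 3 lower and 7 not called (all transcripts: 21% higher, 17.8% lower). The 18 markers summed to 60.4 and 69.4 RPKM in liver, below 383 and 479 in mesoderm.

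Vegfa is known as a target of the hypoxia factor HIF. Of 13 hypoxia regulators and targets, shares near those of all transcripts were called in each direction (16.9% and 13.7% of all): Adm (2.94 ± 0.72) and Egln3 (2.07 ± 0.66) were higher in mesoderm, Bnip3 (−2.51 ± 0.80) and Ldha (−1.12 ± 0.32) were lower, and 9 did not pass, with Hif1a at −0.72 (adjusted p = 0.053) and a list median of −0.19.

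Marker lists of other cells were read beside the same shares of all transcripts, 16.9% higher and 13.7% lower. All 8 primitive erythroid markers were higher in mesoderm, with Hba-x (5.28), Hbb-y (5.12) and Hbb-bh1 (4.97) changed most, as were 7 of 8 megakaryocyte markers, led by Pf4 (5.18), Gp9 (4.95), Ppbp (4.95) and Gp6 (4.77). Of 10 mesenchymal and mural markers 6 were higher, led by Acta2 (4.86), Tagln (4.50), Col1a2 (4.42) and Col1a1 (3.69), and of 8 macrophage markers 4, Mrc1 (4.27), Cx3cr1 (3.32), Aif1 (3.27) and Fcgr1 (2.49). Of 7 trophoblast markers, Hand1 (3.62) and Ascl2 (2.25) were higher and Gcm1 (−2.32) was lower, and the 8 markers in the table, 1 of them not tested, summed to 10.2 RPKM in one mesoderm library and 113.6 in the other. Of 10 visceral endoderm markers 9 were lower in mesoderm, with Hnf4a (−3.78), Foxa2 (−3.72), Ttr (−3.66) and Apoa1 (−3.35) changed most, and Afp (−3.01, adjusted p = 0.13) did not pass. All values are log2 fold changes of mesoderm over ysE.

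Between E9.25 and E12.5 in ysE, 4 of the 10 genes were lower at the later stage at FDR 5% (Flt1, Kdr, Tek and Pecam1), none was higher and Vegfa did not pass, beside 4.57% lower and 3.9% higher among all transcripts. The median of the 10 genes was −3.65, and −0.21 over all transcripts. E12.5 ysE was 1 library, so its spread was taken from the other tissues, and DESeq2 called 6 members. Without either E9.25 ysE library 2 passed, and without d10 replicate B of the cystic EBs 7 did.

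Flt1 had 3 counts (0.011 RPKM) in E12.5 ysE, after 0.432 and 0.653 RPKM at E9.25. Its share of all counts was 51.2-fold higher at E9.25, with a 95% counting interval of 17.5 to 249, and its adjusted p was 0.0090. Kdr had 12 counts (0.051 RPKM), with a log2 fold change of −5.47 ± 1.43 (adjusted p = 0.046), and Tek 11 counts (0.055 RPKM), with −5.00 ± 1.09 (adjusted p = 0.024). All 3 receptors lay far below both E9.25 libraries. Kdr passed at the margin, and its adjusted p was 0.052 with RLE scaling and up to 0.129 in the 7 fits without 1 library in which it did not pass.

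Pecam1 had 5 counts (0.035 RPKM; log2 fold change −4.82 ± 0.60, adjusted p = 0.0029). Cdh5 (0.052 RPKM; −4.64 ± 1.76, adjusted p = 0.14), Tie1 (0.179 RPKM; −2.65 ± 1.18, adjusted p = 0.195), Angpt1 (0.074 RPKM; −2.36 ± 0.88, adjusted p = 0.13) and Eng (0.084 RPKM; −2.21 ± 0.63, adjusted p = 0.062) did not pass. The 2 other Eng rows gave −2.45 with an adjusted p of 0.049. Vegfa was at 10.1 RPKM (−0.47 ± 0.34, adjusted p = 0.42) and Angpt2 at 1.12 RPKM (−0.37 ± 0.68, adjusted p = 0.78).

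At E12.5 the 18 endothelial markers summed to 13.1 RPKM in ysE, against 23.8 and 28.4 at E9.25. Their median log2 fold change was −3.48, and 5 of them were lower and none higher (all transcripts: 4.57% lower, 3.9% higher). Primitive erythroid markers summed to 225 RPKM, against 858 and 1026, with 4 of 8 lower. Visceral endoderm markers summed to 46832, against 11798 and 13237, but none of these 10 markers was called (median log2 fold change 0.31). The part of these cell types in the stage values was not tested.

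Liver at E12.5 gave a further tissue with endothelium and blood, but tissue, stage and protocol cannot be told apart in its comparison with mesoderm. Of the 10 genes, 5 were higher in VYS mesoderm than in liver and none lower (all transcripts: 21% higher, 17.8% lower): Eng (log2 fold change 2.12 ± 0.45, adjusted p = 0.0058), Tie1 (2.63 ± 0.84, 0.034), Tek (2.0 ± 0.64, 0.035), Flt1 (1.71 ± 0.48, 0.020) and Pecam1 (1.66 ± 0.33, 0.0046). Kdr measured 11.8 and 10.6 RPKM in liver (log2 fold change 1.87 ± 0.83, adjusted p = 0.10) and Cdh5 5.32 and 5.67 (1.67 ± 1.03, 0.22). Without any 1 library of either tissue 2 of the 5, Eng and Pecam1, passed, and without either E9.25 ysE library 3 did.

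Angpt2 was the member with its highest tissue mean in liver, at 5.07 and 4.42 RPKM, above both mesoderm libraries (log2 fold change of mesoderm over liver −1.01 ± 0.54, adjusted p = 0.16). Angpt1 was at 7.46 and 6.65 RPKM (0.49 ± 0.56, adjusted p = 0.51) and Vegfa at 12.1 and 11 (0.15 ± 0.27, adjusted p = 0.69). In liver the ratio of Vegfa to Kdr was 1.02 and 1.04 and that of Angpt2 to Angpt1 0.684 and 0.669. Both ratios lay between those of the yolk sac layers.

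On the RPKM scale cystic EBs had the highest Vegfa levels of the series. They were 26.6 RPKM at day 10 and 34.2 at day 15 for A9, and 21.6 and 22.1 RPKM for JN. All 4 lay above every other library on this scale. In edgeR with clone JN alone, made with the protocol of the yolk sac layers, the log2 fold change was 0.17 over E9.25 ysE (adjusted p = 0.37) and 0.38 over mesoderm (adjusted p = 0.081). With clone A9 alone, made with the liver protocol, it was 1.12 over liver (adjusted p = 0.0016). With both clones the log2 fold change was 0.54 ± 0.24 over E9.25 ysE (adjusted p = 0.085) and 0.70 ± 0.24 over mesoderm (adjusted p = 0.054). It was 0.85 ± 0.24 over liver (adjusted p = 0.018), and of these only the last passed the test. That call was lost without either liver library (adjusted p = 0.067 and 0.12).

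Flt1 was the receptor that stood apart in cystic EBs, at 12.9 and 17.1 RPKM in A9 libraries and 6.51 and 6.82 in those of JN, around the mesoderm values of 8.91 and 9.44. It was higher than in E9.25 ysE (log2 fold change 3.89 ± 0.50, adjusted p = 0.00027) and liver (1.83 ± 0.44, 0.0085), and its difference from mesoderm was 0.12 ± 0.40 (0.84). With clone JN alone, made with the protocol of the yolk sac layers, Flt1 was lower than in mesoderm (−0.64 ± 0.20, adjusted p = 0.034).

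Against mesoderm, 6 of the 10 genes were lower in cystic EBs and none higher (all transcripts: 15% lower, 13.9% higher). Pecam1 (−2.66 ± 0.27), Eng (−3.56 ± 0.36), Tek (−3.10 ± 0.52), Tie1 (−4.07 ± 0.68), Kdr (−2.80 ± 0.68) and Angpt1 (−1.76 ± 0.47) fell, with adjusted p-values of 0.00026 to 0.021, and Cdh5 was at −2.13 ± 0.84 (adjusted p = 0.084). With the replicate block, a shift between the replicate letters A and B that all tissues but E12.5 ysE shared, Cdh5 passed (−2.55, adjusted p = 0.047). With clone JN alone 8 of the 10 were lower, with Cdh5 at −4.175, Tek at −4.135, Kdr at −3.8 and Angpt1 at −2.55 (adjusted p of 0.00013 to 0.0011). Without d10 replicate A Kdr was at −3.84. All 18 other endothelial markers and all 8 primitive erythroid markers were also lower. The erythroid markers summed to 12.4 to 129 RPKM in cystic EBs. Kdr and Angpt1 did not pass without either mesoderm library, and DESeq2 called 7 of the 10 lower and 1 higher.

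Against E9.25 ysE, 3 of the 10 were higher in cystic EBs and none lower (all transcripts: 27.1% higher, 23.2% lower), namely Flt1, Angpt1 (2.91 ± 0.57, adjusted p = 0.0026) and Pecam1 (1.86 ± 0.31, adjusted p = 0.0011). Kdr (1.34 ± 0.75, adjusted p = 0.16), Tek (1.32 ± 0.57, 0.080), Cdh5 (1.57 ± 0.94, 0.19), Tie1 (0.04 ± 0.69, 0.97) and Eng (−0.19 ± 0.37, 0.69) did not pass. With clone JN alone the same 3 passed, with Flt1 at 3.06, Angpt1 at 2.07 and Pecam1 at 1.77, while Kdr was at 0.29, Cdh5 at −0.53 and Vegfa at 0.17. Without d10 replicate A Kdr was at 0.30. DESeq2 called 6 higher, as did the fit without d10 replicate B of the cystic EBs. Against liver, 2 were higher, Flt1 and Vegfa, and 2 lower, Pecam1 (−1.0 ± 0.27, adjusted p = 0.015) and Eng (−1.44 ± 0.36, adjusted p = 0.010), beside 24.6% higher and 20.9% lower of all transcripts. Without d10 replicate A of the cystic EBs 7 were lower than in liver, without liver replicate A 1 of the 4 calls (Eng) remained, and without liver replicate B none did.

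The order of mean RPKM was mesoderm, liver, cystic EBs, E9.25 ysE and E12.5 ysE for Kdr, Tek, Tie1, Pecam1, Cdh5, Angpt1 and Eng. Neighbours in this order whose difference did not pass the test were mesoderm and liver for Kdr, Cdh5 and Angpt1, liver and cystic EBs for Kdr, Tek, Tie1, Cdh5 and Angpt1, the EBs and E9.25 ysE for Kdr, Tek, Tie1, Cdh5 and Eng, and the ysE stages for Tie1, Cdh5, Angpt1 and Eng. Flt1 and Vegfa had their highest mean RPKM in cystic EBs and the next in mesoderm, but neither of these differences passed, Flt1 was lower than in mesoderm with clone JN alone, and the order of the E9.25 layers for Vegfa turned after TMM scaling. The order of cystic EBs and E9.25 ysE turned for Eng after TMM scaling (log2 fold change −0.19) and for Tie1 (−0.36) and Cdh5 (−0.53) with clone JN alone. That of cystic EBs and liver turned for Cdh5 (0.38) with clone A9 alone, made with the liver protocol. These comparisons share libraries.

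Between day 10 and day 15, none of the 10 genes and none of 22452 transcripts passed an FDR of 5% in edgeR (0% called), and DESeq2 called 11 transcripts. In edgeR 304 transcripts and none of the 10 had an unadjusted p under 0.05. These fits left the clone out, so that the difference between clones added to their spread. With the clone in the edgeR fit none passed either. The comparison of clones took the 2 days of a clone as its replicates. Flt1 (log2 fold change of A9 over JN 1.25 ± 0.23, adjusted p = 0.024) and Cdh5 (2.86 ± 0.69, adjusted p = 0.047) were higher in A9 and no member was lower, where 4.64% of transcripts were higher and 7.9% lower. Without d10 replicate B neither passed, without d15 replicate B Flt1 did not and Tek did, and without d15 replicate A 6 of the 10 passed.

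The sign of the change from day 10 to day 15 differed between clones in 6 of the 10 genes, as it did in 40.5% of 11758 genes at 1 RPKM or more. For clone A9, Kdr was 19.0 RPKM at day 10 and 3.10 at day 15, and for JN it was 2.36 and 5.395. Tie1 was 3.05 and 0.545 RPKM in A9 and 0.354 and 2.13 in JN. The d10 A9 library thus had the highest Kdr and Tie1 of the 4, and in JN the higher values were at day 15. Vegfa over Kdr accordingly ranged from 1.396 to 10.7 over the 4 libraries.

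**Figure D4:**
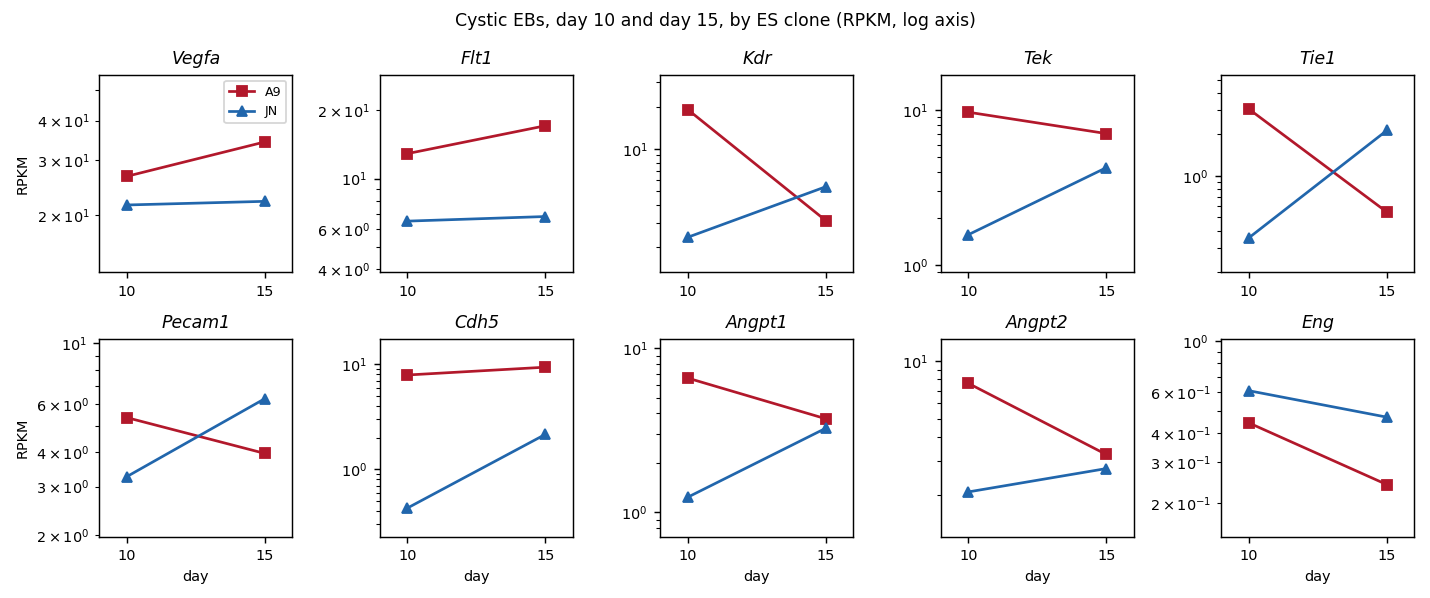
The y axis of each panel is RPKM on a log scale and the x axis the day of culture, with 1 library for each point. Clone A9 is in red squares and clone JN in blue triangles. Kdr and Tie1 are lower at day 15 in A9 (19.0 and 3.10, 3.05 and 0.545 RPKM) and higher at day 15 in JN.

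Across the 11 libraries, the pattern of Kdr followed that of Tek (Pearson's r = 0.97 on log2(RPKM + 1)), Pecam1 (0.94), Tie1 (0.93) and Angpt1 (0.93), and was unlike that of Vegfa (0.08). Vegfa was most like Flt1 among the members (0.79). Over 11942 genes, those most like Vegfa were Zfp870, Ptpn14, Fut8, Mbtps2 and Tti2 (r = 0.971 to 0.983), and those most like the mean of the 7 receptor and junction genes were Arhgap31, Cd248, Pdgfrb, Ctla2b and Mmrn2 (0.975 to 0.984). These values describe 11 libraries of 5 tissues that share protocols and replicates, and the second list held Pdgfrb and Cd248, known from mural and stromal cells, beside the endothelial Mmrn2.

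CpG methylation near the starts, within 1 kb, was read from few reads, 6 to 58 for a gene and tissue summing the libraries of a tissue that had at least 5. The values of Tek, Pecam1 and Eng in ysE, Cdh5 and Eng in liver, and Vegfa, Kdr, Tek, Angpt1 and Flt1 in cystic EBs rest on 1 library. In E12.5 ysE, Vegfa had 0 methylated of 25 reads (Wilson 95% interval up to 13.3, and 12% by the limit of 3 reads of the total), and Flt1 3 of 42 (7.14%, 2.46 to 19.0). Kdr had 31.7% (19.6 to 47.0), Tek 37.5% (21.2 to 57.3), Angpt1 40.7% (24.5 to 59.3) and Tie1 51.7% (39.2 to 64.1). Vegfa and Flt1 were thus the least methylated of the 9, and in this tissue they were the members with the highest and the lowest RPKM (10.1 and 0.011). Cdh5 had 87.5% (64.0 to 96.5), Pecam1 90.0% (59.6 to 98.2) and Eng 8 of 8 reads. Genes with at least 5 reads had a median of 40.0% and 42.1% in the ysE libraries.

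In liver, Vegfa had 1 of 35 reads methylated (2.86%, 0.506 to 14.5), Flt1 9.09%, Kdr 15.4%, Tek 27.8%, Pecam1 40.0% and Tie1 62.2%. Single libraries differed: Pecam1 in liver was 50% in CxF (14 reads) and 16.7% in FxC (6 reads), and Tie1 in ysE was 43.5% (46 reads) and 83.3% (12 reads). In day 15 cystic EBs, Pecam1 had 52 of 54 reads methylated (96.3%, 87.5 to 99.0), Angpt1 78.3%, Tie1 76.9%, Kdr 50%, Vegfa 5 of 13 (38.5%, 17.7 to 64.5) and Flt1 4 of 12 (33.3%, 13.8 to 60.9). Over all genes the medians of the liver libraries were 58.3% and 62.5%, and those of the EB libraries 66.7% and 74.3%. Differences between tissues were not tested. The intervals cover counting error alone, and reads at neighbouring CpGs are not independent.

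**Figure D5:**
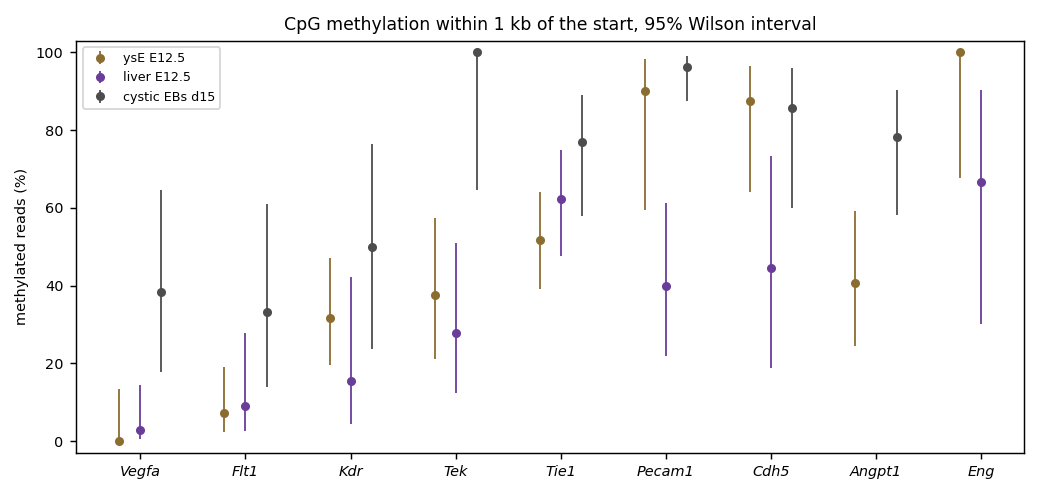
The y axis is the percent of methylated reads at CpGs within 1 kb of the start of 9 genes, with 95% Wilson intervals, in ysE, liver and cystic EBs. Vegfa is at 0 and 2.86% in ysE and liver, and Pecam1 is at 90.0% in ysE and 40.0% in liver.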

How the data were processed

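The members and gene lists were chosen with earlier results of these data known. Per the submitters' notes, reads were aligned with GSNAP to mm10, and the authors deposited raw read counts and RPKM per RefSeq transcript. Whether counting used strand, and the library size behind the RPKM, are not given in the sources used here. The deposited methylation files give the percent methylated and the reads at each cytosine, as the authors called them, and the deposited peak list gives the score of MACS 1.4.2 (its p-value on a negative log scale). The ChIP input was not analysed here.

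Counts of all 11 RNA-seq libraries were fitted together over 5 tissues (cystic EB libraries as 1 tissue) with edgeR 4.0.16 in R 4.3.3 (filterByExpr, TMM factors, quasi-likelihood test, Benjamini-Hochberg adjustment over 24858 transcripts, FDR 5%). EB days and clones were fitted on the 4 EB libraries. SE is the log2 fold change divided by the square root of F, and folds are on that scale. Ratios used RPKM + 0.1, and likeness log2(RPKM + 1) over genes with a mean of at least 1 RPKM. Genes named from lists were up to 4 called genes with the largest changes between the E9.25 layers; Vegfb, Figf, Nrp2, Smad1, Id1, Tspan18, Hif1a and Afp were named after their values were seen.

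Methylated reads were summed over CpGs within 1000 bases of a start, with at least 5 reads a library. This minimum was first applied to each CpG, which left 2 members with a ysE value, and was then read as a minimum for the window after seeing that. Deviations of libraries of the same letter had correlations of −0.09 to 0.17 between tissues, which cannot show whether the layers of a letter shared litters. The main fit was unpaired. EB libraries of a letter shared a clone (0.64). The fit was tested on simulated counts, with changes planted only in mesoderm and only in transcripts above a set mean count. These data held no spread between clones. The test thus does not bear on the EB comparisons or on the low counts of E12.5 ysE. Alternatives were DESeq2 1.42.0, RLE factors, no filter, 1 transcript row a gene, only the groups compared, the replicate block, EBs of the same library protocol and each library left out. Over tissues the replicate block was a single shift between letters A and B, shared by all tissues but E12.5 ysE. It thus put the same shift on EB clones and on litter pools. In the EB fits the block was the clone for the days and the day for the clones.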

Additional observations from a re-analysis of the deposited data

Results flagged for a closer look

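In 6 of the 10 genes, and in 40.5% of 11758 genes, the change from day 10 to day 15 of cystic EB culture had opposite signs in the ES clones, given here as log2 RPKM ratios of day 15 over day 10. Kdr was at −2.62 in clone A9 and 1.19 in clone JN, and Tie1 at −2.49 and 2.59. Tek was at −0.46 and 1.44 and Pecam1 at −0.43 and 0.94. Angpt1 was at −0.82 and 1.4 and Angpt2 at −1.23 and 0.40. Each value rests on 1 library a day, the difference between clones was not tested, and clone, its sex and library protocol cannot be told apart.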

How the results depend on the processing

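With only the groups compared in the fit, transcripts called rose to 13160 for mesoderm against E9.25 ysE (7613 with all tissues) and 10559 for the ysE stages (2106; DESeq2 3937), and members called were 8 lower for the ysE stages, 8 higher and 1 lower for mesoderm against liver, 1 higher for EBs against liver, and 5 lower for EBs against mesoderm, where Angpt1 lost its call (−1.73, adjusted p = 0.058 in edgeR). DESeq2 called 6 members higher for EBs against E9.25 ysE, 11 transcripts between days, and 5451 transcripts and 5 members between clones. For EBs against mesoderm RLE and DESeq2 each called 1 member higher. With EBs of the same protocol, 4 members were lower than in liver, and log2 fold changes turned sign for Cdh5 (−0.53), Eng (0.0036) and Tie1 (−0.36) against E9.25 ysE, Angpt2 (−0.35) and Flt1 (−0.64) against mesoderm and Cdh5 (0.38) against liver. With the replicate block, transcripts called were 8006 (mesoderm against E9.25 ysE), 2337 (ysE stages), 10257 (mesoderm against liver), 12964, 7982 and 11616 (EBs against E9.25 ysE, mesoderm and liver), 0 (days) and 4050 (clones), Tie1 (−0.000134, EBs against ysE), Angpt1 (0.27) and Tie1 (0.054, both between days) turned sign, and Eng (ysE stages, adjusted p = 0.0431 in edgeR), Cdh5 (EBs against mesoderm, 0.0470) and Angpt1 (EBs against liver, 0.0221) gained a call; the block changed no other call. The cause of these shifts was not tested.

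With 1 RPKM added, the 5 log2 ratio differences were 3.798, 2.575, 0.91, 3.45 and 2.54. With 0.1 RPKM added 3 of the 5 genes most like the receptors remained. Median member methylation in ysE, 40.7%, was 48.1% within 500 bases and 51.4% with 5 reads at each CpG, an alternative added after seeing the data. Leaving out 1 library gave 4021 to 8411 transcripts and 5 to 8 members (mesoderm against E9.25 ysE), 349 to 2859 and 2 to 7 (ysE stages), 4856 to 10782 with 2 to 6 higher and 0 to 1 lower (mesoderm against liver), 7603 to 12845 and 3 to 6 (EBs against E9.25 ysE), 2512 to 7772 with 0 to 1 higher and 4 to 7 lower (EBs against mesoderm), 6668 to 12055 with 0 to 2 higher and 0 to 7 lower (EBs against liver), and 528 to 2765 and 0 to 6 (clones). Log2 fold changes that turned sign ranged from −0.45 to 0.27 (Eng) and −0.56 to 0.37 (Tie1) for EBs against E9.25 ysE, and −0.13 to 0.62 (Angpt2) and −0.19 to 0.32 (Flt1) for EBs against mesoderm. Between days they ranged from −0.91 to 1.48 (Angpt1), −1.34 to 0.51 (Angpt2), −1.05 to 3.78 (Cdh5), −0.61 to 0.89 (Flt1), −2.18 to 0.80 (Kdr), −0.081 to 0.61 (Pecam1), −0.76 to 1.85 (Tek), −1.56 to 1.85 (Tie1) and −0.23 to 0.58 (Vegfa), and between clones from −0.19 to 2.35 (Kdr), −0.30 to 0.52 (Pecam1) and −1.04 to 2.33 (Tie1). Of 1220 member values under alternatives, 1078 kept direction and side of the threshold, 56 gained and 50 lost a call, and 36 turned sign.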
